A study of Mus musculus with 8 samples.

Results

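Newborn neurons that carried Tfap2d or Sstr2 RNA but no Eomes RNA were examined in the embryonic day 16.5 mouse cortex, in wild type (WT) embryos and in littermates that had received ShhN. Droplet barcodes counted as cells with 2300 or more unique molecular identifiers (UMIs, counted RNA molecules) and 800 or more genes, where mitochondrial genes took no more than 10% of the UMIs. Members were chosen by their counts of 8 genes in these same data: a cell was a member when it held at least 2 UMIs of Tfap2d plus Sstr2 and 0 UMIs of Eomes, Mki67, Top2a, Gad1, Gad2 and Dlx2. By this rule 1318 of 15547 cells were members, 536 of 7233 WT cells and 782 of 8314 ShhN cells.

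All embryos were of the CD1 strain, and each group had 4 samples. The WT group was cortex of wild type littermates, taken at embryonic day 16.5. In the ShhN group a plasmid for ShhN, the signalling fragment of sonic hedgehog (SHH), was electroporated in utero at E13.5, and the cortex was taken at the same age as in the WT group. Electroporation reaches progenitors that line the ventricle next to the injected plasmid, so a dissected cortex mixes cells with and without it; neither the promoter of the plasmid nor a control plasmid in the WT embryos is given in the labels. The 4 samples of a group lie in 1 pooled matrix and cells could not be traced to them, so every comparison below is between 2 libraries, with no replicate check and no test. Intervals are 95% intervals of counting error alone.

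Newborn excitatory neurons of the cortex arise from radial glia, mostly through intermediate progenitors that express Eomes (Tbr2). They leave the cell cycle, pass through a multipolar stage in the subventricular and intermediate zones, and then migrate to the cortical plate, where they switch on genes of their layer. Tfap2d encodes a transcription factor of the AP-2 family and Sstr2 a receptor for somatostatin. Rnd2 encodes an atypical small GTPase that acts downstream of Neurog2 in the migration of newborn neurons, and Tmem176b a 4-span membrane protein. SHH binds PTCH1, which releases SMO and lets the GLI factors act, and Ptch1, Gli1 and Hhip are its classic target genes.

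The WT library held 63760199 UMIs and the ShhN library 69470062, with medians of 6385 and 6758.5 UMIs per cell. Members were somewhat shallower, with medians of 5581 UMIs and 2283 genes in WT and 5911 UMIs and 2291.5 genes in ShhN. Their median mitochondrial share was 3.21% in WT and 3.11% in ShhN. There were 79 barcodes that were cells in both libraries, and 8 WT and 6 ShhN members carried one of them. A doublet caller marked 29 WT members (5.41%) and 29 ShhN members (3.71%), which were kept.

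The levels of several genes the rule did not use differed with the number of Tfap2d plus Sstr2 UMIs in a cell. Cells with no such UMI, set beside members here, lacked the 6 excluded genes but were not chosen as neurons. Rnd2, 1 of the 2 proposed markers outside the rule, stood at 204 CPM (UMIs of the gene scaled to 1000000 UMIs of the members, 95% interval 189.7 to 219) in WT members and at 220.0 CPM (207 to 233) in ShhN members. Among cells with none of the 6 excluded genes, Rnd2 was at 31.1 CPM in WT cells with no Tfap2d or Sstr2 UMI, at 104 CPM with 1 UMI, and at 168 CPM, 238 CPM and 231 CPM with 2, 3 and 4 or more. In the ShhN library the values were 45.6, 127, 220.3, 243 and 205 CPM, with the largest step between 1 and 2 UMIs and a lower value at 4 or more than at 3. Tmem176b was higher too in cells with more of these UMIs, from 11.2 CPM at 0 UMIs to 63.2 CPM at 4 or more in WT, and from 27.5 to 136 CPM in ShhN. Mef2c, a transcription factor of maturing neurons, went the other way, from 1225 to 218 CPM in WT and from 1035 to 147 CPM in ShhN. Stmn2, a microtubule regulator of growing axons, went from 2223 to 1046 CPM in WT and from 2348 to 1021 CPM in ShhN.

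**Figure D1:**
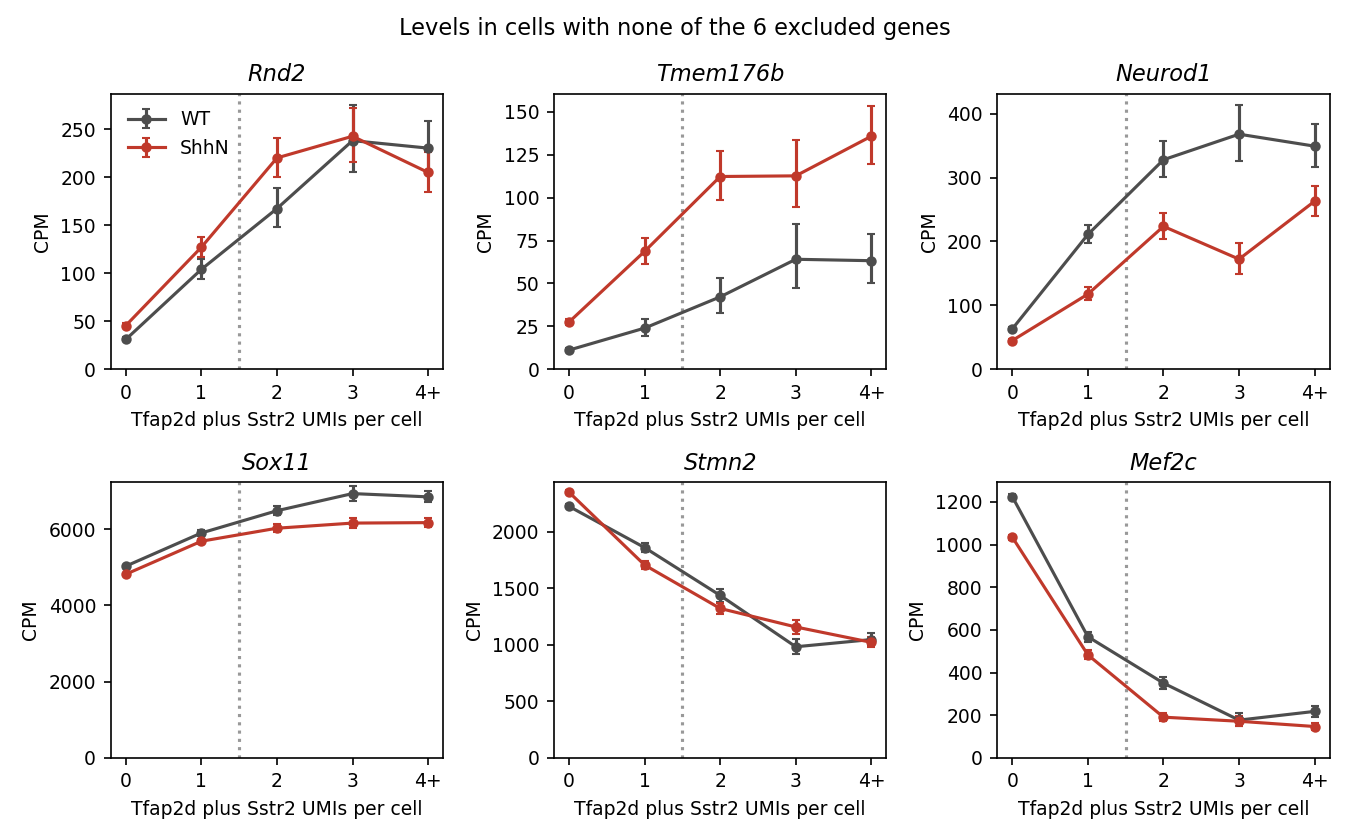
Levels in CPM (vertical axes, starting at 0) of 6 genes the rule did not use, in cells with none of the 6 excluded genes, by their number of Tfap2d plus Sstr2 UMIs (horizontal axes); bars are 95% Poisson intervals and the dotted line marks the threshold. Rnd2 and Tmem176b are higher in cells with more of these UMIs and Mef2c and Stmn2 are lower, and the values change on both sides of the threshold between 1 and 2 UMIs.

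For comparison, Eomes cells were taken as cells with at least 2 Eomes UMIs and none of Mki67, Top2a, Gad1, Gad2 and Dlx2 (593 in WT, 599 in ShhN). Neurog2, a proneural factor of progenitors, stood at 38.5 CPM in WT and 55.1 CPM in ShhN members against 330 and 279 CPM in Eomes cells. Btg2, an antiproliferative gene of neurogenic divisions, stood at 24.3 and 34.0 CPM in members against 145 and 111 CPM in Eomes cells. Sox2, a factor of neural stem cells, stood at 5.46 and 17.8 CPM in members against 107 and 94.4 CPM in Eomes cells. Neurod6, a factor of postmitotic excitatory neurons, was higher in members, at 1593 and 1894 CPM against 899 and 1026 CPM. Neurog2, Btg2 and Sox2 were thus lower and Neurod6 higher in members than in Eomes cells, although the choice of cells without Eomes favours this. Insm1, a further factor of neurogenic progenitors, lay the other way. It stood at 136 CPM in WT and 135 CPM in ShhN members against 119 and 113 CPM in Eomes cells. Neurod1, which is high in late intermediate progenitors and newborn neurons, was about as high in members (344 and 226 CPM) as in Eomes cells (320 and 256 CPM).

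Vascular, microglial and oligodendrocyte lineage markers were scarce, while radial glia and erythroid markers were not. The 17 radial glia markers summed to 583 CPM in WT and 596 CPM in ShhN members, beside 1275 and 1316 CPM in free RNA (barcodes with 1 to 50 UMIs). The 7 erythroid markers summed to 4138 and 5908 CPM, beside 22969 and 12788 CPM in free RNA. The 8 vascular markers summed to 6.003 CPM in WT and 5.35 CPM in ShhN members, and the 8 microglial markers to 0.273 and 0.956 CPM, with 7 of the 8 at 0 in WT and 4 of the 8 in ShhN. The 7 markers of the oligodendrocyte lineage summed to 5.73 and 6.31 CPM, and Sox10, which defines that lineage, was at 0 in both. The 14 interneuron markers, led by Npy and Prox1, summed to 121 CPM in WT and 52.9 CPM in ShhN members. The 9 Cajal-Retzius markers summed to 148 and 77.0 CPM. They include Nhlh2, which is also on the newborn neuron list. Of these sums, Reln held 29.5 CPM in WT and 2.29 CPM in ShhN, and Calb2 40.1 and 11.5 CPM. The 8 subplate markers summed to 63.9 and 38.8 CPM. The summed levels of these last 3 lists were lower in ShhN, and they return below with the genes that were lower in ShhN members.

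Members made up 7.41% of WT cells (6.82% to 8.04%) and 9.41% of ShhN cells (8.79% to 10.1%), a ratio of 1.27 (1.14 to 1.42). Before the 6 excluded genes were applied, 15.97% of WT and 21.1% of ShhN cells had at least 2 UMIs of Tfap2d plus Sstr2. Of those, 48.8% in WT and 47.3% in ShhN had an Eomes UMI, 8.92% and 24.9% had a UMI of the proliferation genes Mki67 or Top2a, and 5.19% and 3.99% had one of the inhibitory lineage genes Gad1, Gad2 or Dlx2. The step that differed between libraries was therefore the removal of cycling cells. These shares come from the genes that chose the cells and describe the selection.

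Within the members, Sstr2 was common and Tfap2d was not. Sstr2 alone was found in 452 of 536 WT members (84.3%) and 543 of 782 ShhN members (69.4%). Tfap2d was found in 84 WT members (15.7%, 12.7% to 19.0%) and 239 ShhN members (30.6%, 27.3% to 33.9%), a ratio of 1.95 (1.51 to 2.53). Most cells with Tfap2d also held Sstr2, 71 of the 84 in WT and 228 of the 239 in ShhN. The level of Sstr2 was close in both libraries, 437 CPM in WT and 439 CPM in ShhN members, while Tfap2d stood at 34.7 and 74.2 CPM. So the ShhN members differed in the mix of both rule genes, which bears on every comparison that follows; it is taken up again below by splitting the members on Tfap2d.

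To compare expression, UMIs of members were summed per library and scaled to CPM. A gene was measured with at least 50 UMIs over both libraries, and it was called higher or lower when the log2 ratio of ShhN over WT was at least 1 in size and the end of its interval closer to 0 was still 0.5 or more away from it. Of 8891 measured genes, 36 (0.405%) were called higher and 107 (1.2%) lower in ShhN members, with Tfap2d itself among the 36. The median log2 ratio of all measured genes was -0.07. TMM scaling moved every ratio up by 0.10, and the split then became 49 higher and 77 lower.

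**Figure D2:**
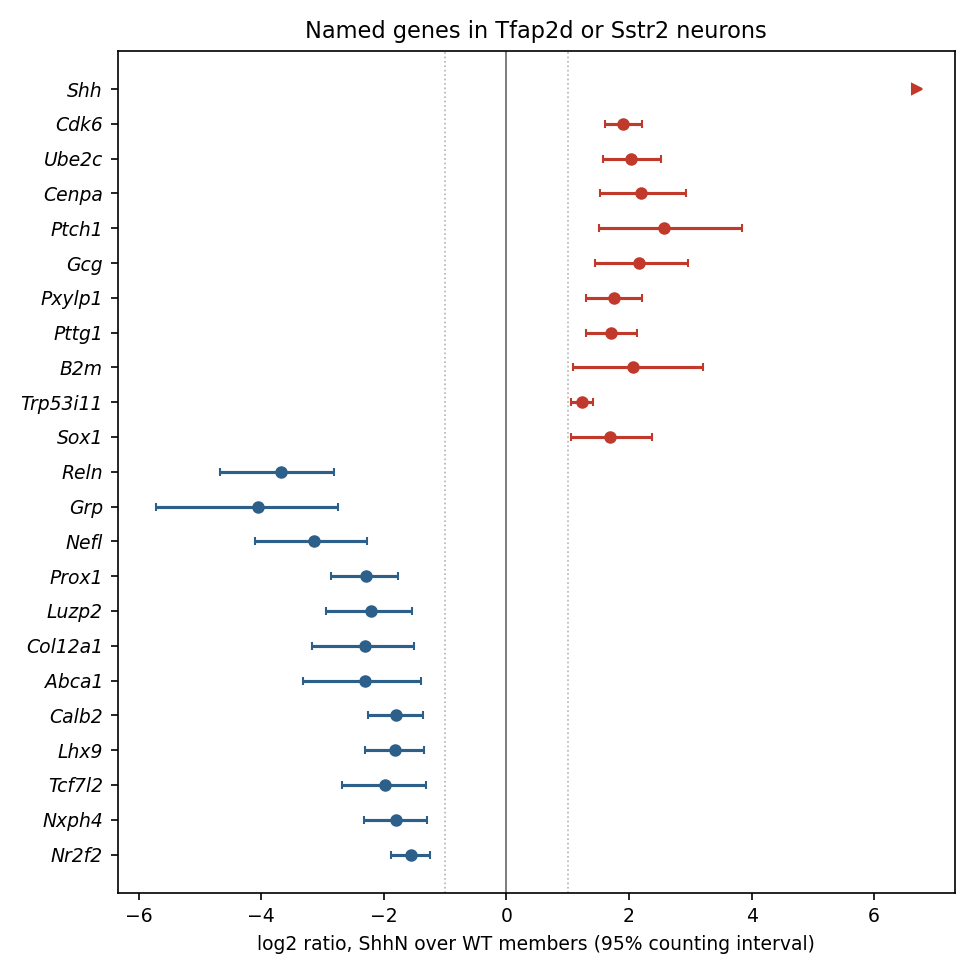
Log2 ratio of ShhN over WT members (horizontal axis) for 11 of the 12 highest and for the 12 lowest genes by the interval bound nearest 0, with 95% counting intervals; dotted lines mark log2 ratios of 1 and -1, and the arrow for Shh marks its ratio over the floor of 3 counts in WT. Cdk6 and Trp53i11 have the narrowest intervals among the higher genes and Nr2f2 among the lower ones.

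Among members, Shh was read in the ShhN library alone. It had 0 UMIs in WT members and 444 in ShhN members (84.9 CPM, 77.2 to 93.1), at least 104-fold higher against a floor of 3 counts in WT; its counting interval began at a log2 ratio of 6.39. The UMIs lay in 77 of 782 members (9.85%, 7.85% to 12.2%), and 42 of them held 3 or more. Shh was not particular to members: 7.30% of all ShhN cells had a Shh UMI. So did 4.34% of the ShhN Eomes cells and 7.81% of the ShhN Unc5d cells described below. The 10 cells with most Shh held 39.0% of the UMIs, and the highest single cell held 28. In WT 0 of 536 members had a Shh UMI, which allows a share of cells with a Shh UMI of up to 0.560% and sets no limit on the share that expressed it. Of 37 vascular cells in the ShhN library, which the plasmid should not reach, 1 had a Shh UMI. Shh made up 116 CPM of the free RNA, measured in barcodes with 1 to 50 UMIs. With cells thinned to equal depth, 0 of 33 ShhN vascular cells had a Shh UMI (0% to 10.6%). That interval includes the 9.21% of thinned ShhN members, so these few cells set no level for free RNA. The part of free RNA in the Shh UMIs of members was not tested beyond the subtraction given below. The counts fall on the Shh gene (ENSMUSG00000002633, chr5:28456815-28467256 in GRCm38), and reads of the plasmid and of the gene cannot be told apart.

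Of the SHH target genes, Ptch1 was called higher. Ptch1, the receptor that SHH relieves and its most direct target, had 8 UMIs in 7 WT members (2.18 CPM) and 68 UMIs in 59 ShhN members (13.0 CPM), a log2 ratio of 2.57 (1.51 to 3.84). It lay below its level in free RNA in both libraries, 8.55 CPM in WT and 31.0 CPM in ShhN. At an equal depth of 4500 UMIs per cell, 0.983% of WT and 6.29% of ShhN members had a Ptch1 UMI, against 2.56% (1 of 39) and 6.06% (2 of 33) of vascular cells. Without thinning the shares were 1.31% and 7.54% in members and 9.62% and 10.8% in vascular cells, at medians of 7326.5 and 7711 UMIs in the latter. The vascular shares rest on few cells and, unthinned, lay above those of members in the same free RNA, so they set no level for free RNA, whose part in the difference was not tested beyond the subtraction given below. Gli1, the transcription factor most often used as a readout of SHH, had no UMI in any member. Hhip, a decoy receptor, had 0 and 5 UMIs.

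The cyclins of this list, which are also targets of other pathways, were measured well. Ccnd2 stood at 176 CPM in WT and 304 CPM in ShhN members, a log2 ratio of 0.79 (0.65 to 0.92), short of the size rule. Ccnd1 stood at a log2 ratio of 0.50 (0.05 to 0.95) and Mycn at 0.04. In all, 1 of the 5 measured target genes of 12 listed was called, with a list median of 0.50. Of 7 measured receptors and mediators of 12 listed, Shh and Ptch1 were called higher and none lower; Smo, the signal transducer, had a log2 ratio of -0.27, and the inhibitor Sufu 0.28.

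Tmem176b, the other proposed marker outside the rule, was higher in ShhN members. It had 198 UMIs in 143 WT members (54.0 CPM, 46.8 to 62.1) and 632 UMIs in 386 ShhN members (121 CPM, 112 to 131), a log2 ratio of 1.16 (0.93 to 1.40). Free RNA held 12.3 CPM in WT and 61.2 CPM in ShhN, below the members. Rnd2 had a log2 ratio of 0.11 (-0.03 to 0.24), so the 2 markers did not move together. With 3 Tfap2d plus Sstr2 UMIs needed for membership, the ratio of Tmem176b was just under the size rule, at 0.996. Its neighbour Tmem176a, which is transcribed the opposite way from a start site 282 bases away, had 5 UMIs in WT and 16 in ShhN members, a log2 ratio of 1.16 (-0.35 to 2.97) on too few counts to be measured. The 250 bases before the Tmem176b start site (ENSMUSG00000029810) are shown because they lie between these neighbouring start sites; they are from RefSeq, chr6:48841375-48841624 on the minus strand of GRCm38.p6, with the E-box letters CAGCTG, read the same on both strands, in capitals:
Tmem176b: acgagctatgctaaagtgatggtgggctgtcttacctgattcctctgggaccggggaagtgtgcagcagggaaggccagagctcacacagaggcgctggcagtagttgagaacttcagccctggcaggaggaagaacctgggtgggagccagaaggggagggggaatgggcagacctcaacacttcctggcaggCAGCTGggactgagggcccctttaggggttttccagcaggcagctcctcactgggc
The E-box letters begin at position 195 of the 250, counted from the 5′ end, and 13.0% of 32851 such windows in the RefSeq table hold them, so the match is a description and marks no binding site.

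None of the 24 measured genes of the newborn neuron and its migration was called, beside 0.405% of all measured genes called higher and 1.2% lower. At these shares few or no calls are due in a list this short. Here and in the lists below, a lack of calls is therefore not read as no change. The median log2 ratio of the list was -0.13 beside -0.07 for all genes. Unc5d, a netrin receptor that multipolar cells use on their way out of the subventricular zone, was the lowest, at 210.4 CPM in WT and 117 CPM in ShhN members (-0.85, -1.005 to -0.69). Sema3c, a secreted guidance factor, stood at -0.76, the cell adhesion gene Cntn2 at -0.63, Neurod1 at -0.60, and Dab1, which relays the reelin signal, at -0.57. Nhlh1, a factor of newborn neurons, was the highest of the list at 0.46, and Elavl4, an RNA-binding protein of early neurons, stood at 0.34. Dcx, the microtubule protein that marks migrating neurons, was at -0.25, and the abundant factors Sox4 and Sox11 at 0.11 and -0.13.

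None of the 11 measured genes of the neurogenic progenitor program was called either, with a median of 0.17. Mfng, which modifies Notch receptors, stood at 0.82, the Notch ligand Dll3 at 0.69, Gadd45g, a growth arrest gene, at 0.67 and Neurog2 at 0.52. Mfap4, a matrix protein found in intermediate progenitors in these libraries, stood at -0.94 (-1.15 to -0.72). The 7 measured Notch genes had a median of 0.19 and no call. Hes1, the main Notch effector, was not measured, with 0 UMIs in WT and 45 UMIs in 34 ShhN members; vascular cells held it at 194 and 152 CPM and free RNA at 6.65 and 26.0 CPM.

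The larger group of higher genes belonged to the cell cycle. Of 24 listed genes of G2 and M phase 10 were measured. Of these, 5 were called higher and none lower, beside 0.405% and 1.2% of all measured genes. Their median was 1.38 beside -0.07 for all genes. The minimum count can be met by ShhN UMIs alone, which can raise such a median. Summed over all 24 genes, the list stood at 279 CPM in WT and 479 CPM in ShhN members. Ube2c, the E2 enzyme of the anaphase-promoting complex, had 46 UMIs in 31 WT members (12.6 CPM) and 269 UMIs in 129 ShhN members (51.4 CPM), a log2 ratio of 2.03 (1.58 to 2.52). Cenpa, the histone variant of centromeres, had 21 UMIs in 15 WT members and 137 UMIs in 61 ShhN members, a log2 ratio of 2.19 (1.52 to 2.93). Tpx2 (1.71), Cks2 (1.46) and Cdc20 (1.37) were the other called members of the list, and Pttg1, the securin, lay outside it at 1.70 (1.30 to 2.12). Tubb4b, a tubulin, was the one measured gene of the list below 0, at -0.07.

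The cells were chosen to lack Mki67 and Top2a, so these UMIs lay in cells without a read of either gene. The free RNA differed in the same direction: the summed G2 and M list stood at 582 CPM in free RNA of WT and 1737 CPM in free RNA of ShhN, against 279 and 479 CPM in members. At least 3 UMIs of the list were found in 26.7% of WT and 40.9% of ShhN members. At equal depth 5.16% of WT and 13.0% of ShhN members had a Ube2c UMI, against 10.3% and 18.2% of vascular cells. Vascular cells are no background for this list, which stood at 1408 CPM in WT and 1924 CPM in ShhN vascular cells, above the free RNA of the same library. The part of free RNA in the difference was not tested, beyond the subtraction given with the alternatives. The median of the list was 1.16 with free RNA subtracted at 5% of each member's total, 0.92 with 1 Eomes UMI allowed and 0.59 after thinning.

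The S phase list had a smaller median than the G2 and M list. None of 18 measured genes was called, and the median was 0.24, with Rrm2, a subunit of ribonucleotide reductase, highest at 0.66 and Dtl, an adaptor of a ubiquitin ligase, lowest at -0.83. Cdk6, the G1 kinase that partners the D cyclins, was called higher. It had 113 UMIs in 81 WT members (30.8 CPM, 25.4 to 37.1) and 604 UMIs in 331 ShhN members (115 CPM, 106 to 125), a log2 ratio of 1.90 (1.61 to 2.21). At equal depth 10.1% of WT and 34.8% of ShhN members had a Cdk6 UMI (15.1% and 42.3% unthinned), against 17.9% and 12.1% of vascular cells. The WT share of Cdk6 lay inside the interval of WT vascular cells (7 of 39, 7.54% to 33.5%). The ShhN share lay above the interval of ShhN vascular cells (4 of 33, 3.40% to 28.2%). Unthinned, 28.8% and 27.0% of vascular cells had a Cdk6 UMI. Free RNA held a higher CPM of Cdk6 than members in both libraries. Its part in the difference was not tested beyond the subtraction given below. None of 8 measured genes of cell cycle exit was called. Among those, the CDK inhibitors Cdkn1b and Cdkn1c stood at -0.02 and -0.28, and Btg2 at 0.49.

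Among 10 measured genes of radial glia, Sox2 was called higher, with 20 UMIs in 20 WT members and 93 UMIs in 66 ShhN members (1.70, 0.995 to 2.48). Its relative Sox1, outside the list, had 25 UMIs in 23 WT and 115 UMIs in 104 ShhN members (1.69, 1.05 to 2.37). Neither call held with cells thinned to equal depth, where Sox2 stood at 0.979 and Sox1 at 1.03. The rest of the list was not called: Pax6, a factor of dorsal radial glia, stood at 0.43, the intermediate filament genes Nes and Vim at 0.41 and 0.31, the lipid-binding gene Fabp7 at -0.61 and Id4, an inhibitor of bHLH factors, at -1.17. In free RNA Sox2 stood at 37.0 CPM in WT and 55.4 CPM in ShhN, above the members in both.

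The remaining genes of the 12 highest have no common list. Gcg, the glucagon precursor gene, had 18 UMIs in 17 WT members (4.91 CPM) and 115 UMIs in 85 ShhN members (22.0 CPM), a log2 ratio of 2.16 (1.44 to 2.97), and was scarce in free RNA at 0.9496 and 1.68 CPM. Pxylp1, a phosphatase of proteoglycan synthesis, stood at 13.6 and 45.9 CPM (1.75, 1.30 to 2.22), and Trp53i11, a p53-inducible gene, at 93.6 and 219.8 CPM (1.23, 1.06 to 1.41). B2m, the light chain of MHC class I, stood at 2.73 and 11.5 CPM (2.07, 1.09 to 3.20). For 9 of the 12 named higher genes the ShhN free RNA held a higher CPM than the ShhN members; Gcg, Pxylp1 and Trp53i11 were the exceptions. All 12 kept their call when free RNA was subtracted at 5% of each member's total. That share was set in advance and not estimated from the data, so a larger part of free RNA was not tested.

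**Figure D3:**
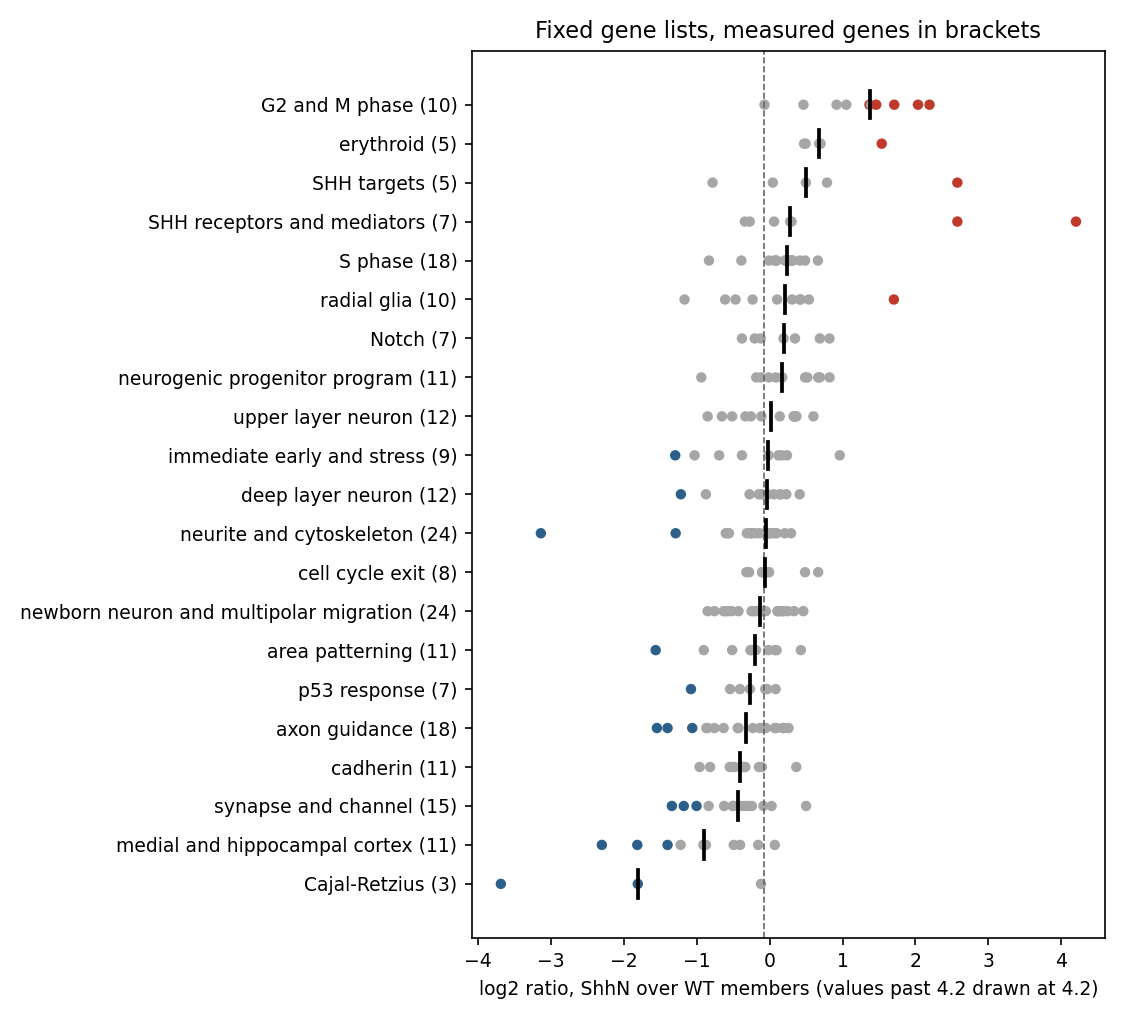
Log2 ratio of ShhN over WT members (horizontal axis) for the measured genes of each fixed list (rows, with their number in brackets); red points were called higher and blue points lower, grey points were not called, black bars are list medians and the dashed line is the median of all measured genes. G2 and M phase lies to the right of that line with 5 called genes, and the medial and hippocampal list to the left with 3.

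The medians of the layer lists lay close to that of all measured genes. None of 12 measured genes of upper layer neurons was called (median 0.01), with Cux2, a homeobox gene of upper layers, highest at 0.60 (59.2 and 89.8 CPM) and Mef2c at -0.65. Of 12 measured genes of deep layer neurons, Foxp2, a forkhead factor of layer 6, was called lower (-1.22, -1.71 to -0.73; 26.2 and 11.3 CPM) and none higher (median -0.03). Bcl11b, a factor of subcerebral neurons, stood at 0.23, Tbr1 at 0.14 and Fezf2 at -0.04.

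Of 11 measured genes of medial cortex and hippocampus, Nrp2, Lhx9 and Prox1 were called lower in ShhN members and none higher. In all, 10 of the 11 had a log2 ratio below 0, and the median was -0.90 beside -0.07 for all genes. Nrp2, a semaphorin receptor, stood at 82.1 CPM in 113 WT members and 31.2 CPM in 77 ShhN members (-1.40, -1.68 to -1.12). Lhx9, a LIM homeobox gene, stood at 34.9 CPM in 63 WT members and 9.94 CPM in 33 ShhN members (-1.81, -2.31 to -1.34). With thinned cells its ratio was larger in size (-2.29), but the minimum count or the interval bound was not met and Lhx9 was not called. Prox1, a homeobox gene of dentate granule cells and of some interneurons, stood at 35.7 CPM in 26 WT members and 7.26 CPM in 17 ShhN members (-2.30, -2.86 to -1.77). Zbtb20, a factor that hippocampal neurons need, was short of the rule at -0.91, as was Emx2, a factor of caudal and medial cortex, at -0.90.

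Area patterning genes gave a smaller difference. Of 11 measured, Nr2f2 (COUP-TFII), a nuclear receptor of caudal cortex and of the caudal ganglionic eminence, was called lower at 67.1 CPM in 100 WT members and 22.7 CPM in 87 ShhN members (-1.56, -1.89 to -1.24). Its relative Nr2f1 stood at -0.26 and Lhx2, a selector gene of cortex, at -0.51.

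The 4 lowest genes by the bound rested on few cells. Reln, which encodes the reelin protein that Cajal-Retzius cells secrete, had 108 UMIs in 21 WT members and 12 UMIs in 9 ShhN members (-3.68, -4.68 to -2.82), and 10 WT cells held 89.8% of its WT UMIs. Without called doublets Reln stood at -1.75 and was not called, and with thinned cells it was not called either (-3.96). Grp, a neuropeptide gene, had 58 and 5 UMIs (-4.05, -5.73 to -2.74), and 10 WT cells held 70.7%. Nefl, a neurofilament gene of mature axons, had 80 UMIs in 18 WT members and 13 in ShhN (-3.14, -4.11 to -2.28), and 10 WT cells held 90.0%. Prox1 had 68.7% of its WT UMIs in 10 cells. Calb2 (calretinin), a marker of Cajal-Retzius cells and some interneurons, had 147 UMIs in 38 WT members and 60 in 19 ShhN members (-1.81, -2.26 to -1.36).

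Reln, Calb2 and Prox1 are themselves on the lists of markers of other cell types. Of 9 Cajal-Retzius markers 3 were measured. Reln and Calb2 were called lower, and Nhlh2, also on the newborn neuron list, stood at -0.12 with no call. Other markers had too few counts to be measured: the defining Trp73 had 9 and 2 UMIs, Lhx1 12 and 2, Lhx5 5 and 0, and Ndnf 9 and 0. Of 14 interneuron markers only Prox1 and Npy were measured, and both were called lower, while Lhx6 had 11 and 2 UMIs and Dlx1 6 and 5. Members with at least 5 UMIs over Reln, Calb2, Prox1, Nefl and Grp numbered 27 in WT (5.04%) and 4 in ShhN (0.512%). Without them, an alternative chosen after seeing the data, 65 genes were called lower in place of 107, and the median of the medial and hippocampal list was -0.65. The 5 genes chose the cells left out, so their own ratios in the cells that remain are not read.

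Of the other named lower genes, Nxph4, Luzp2 and Abca1 were spread over more cells. Nxph4, a neurexophilin known from subplate neurons, had 112 UMIs in 95 WT members (30.6 CPM) and 46 UMIs in 42 ShhN members (8.79 CPM), a log2 ratio of -1.80 (-2.33 to -1.29). Luzp2 had 78 UMIs in 56 WT members and 24 in 20 ShhN members (-2.21, -2.94 to -1.54). Abca1, a cholesterol exporter, had 45 UMIs in 40 WT and 13 in 13 ShhN members (-2.30, -3.32 to -1.39). Col12a1, a collagen, stood at 16.1 and 3.25 CPM (-2.31), and Tcf7l2, a transcription factor of Wnt signalling, at 19.6 and 4.97 CPM (-1.98). Luzp2, Abca1, Col12a1 and Tcf7l2 were not called with thinned cells. Abca1 and Col12a1 also lost their call with 3 Tfap2d plus Sstr2 UMIs needed. Col12a1 lost it as well without the members rich in Reln, Calb2, Prox1, Nefl or Grp. Free RNA held a higher CPM than members for 1 of the 12 named lower genes in WT (Reln) and for 5 in ShhN (Reln, Nefl, Prox1, Calb2 and Nr2f2).

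Most genes for guidance, adhesion and synapses were not called. Of 18 measured axon guidance genes 3 were called lower, namely Nrp2, the ephrin receptor Ephb1 (39.0 and 13.4 CPM, -1.54) and its relative Epha7 (50.2 and 24.1 CPM, -1.06), and none higher (median -0.33). Of 15 measured synapse and channel genes 3 were called lower, among them the GABA receptor subunit Gabra2 (159 and 70.5 CPM, -1.18) and the glutamate receptor subunit Gria1 (33.3 and 16.6 CPM, -1.001). Their median was -0.43. None of 11 measured cadherins was called, although 10 of the 11 lay below 0 (median -0.41). Of 24 neurite and cytoskeleton genes, the neurofilaments Nefl and Nefm (46.7 and 19.1 CPM, -1.29) were called lower, and the median was -0.05, so the common cytoskeletal genes such as Tubb3 (-0.02), Dpysl3 (-0.02) and Stmn2 (-0.04) hardly differed.

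The remaining lists gave few calls. Of 9 immediate early and stress genes, Fosb was called lower (-1.29) and Jun stood at 0.96 without a call, and of 7 p53 response genes Ccng1 was called lower (-1.08). Of the 12 genes of somatostatin and neuropeptide signalling only Npy was measured, at 63.0 and 30.0 CPM (-1.07); it was more abundant in free RNA (157 and 138 CPM), and 10 WT cells held 72.7% of its WT UMIs. The ligand gene Sst had 18 and 24 UMIs, and the receptors Sstr1 and Sstr3 had 12 and 2 and 8 and 20. Of 5 measured erythroid genes Alas2, an enzyme of heme synthesis, was called higher. In both libraries a few members held most globin: 2 WT and 4 ShhN members with over 5% globin held 74.6% and 90.8% of it, and the other members stood at 1055 and 548 CPM. Alas2 had 11 of its 14 UMIs in WT and 55 of its 58 in ShhN in those cells. Without them the median of the erythroid list turned from 0.68 to -1.01.

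Members with and without Tfap2d were then set against each other within each library, which shares no cells between WT and ShhN. The split uses a gene of the rule, so Tfap2d itself is no result. In WT 17 of 6990 measured genes were higher (0.243%) and 43 lower (0.615%) in the 84 cells with Tfap2d than in the 452 with Sstr2 alone. In ShhN 9 of 7672 were higher (0.117%) and 43 lower (0.56%) in 239 cells than in 543. The same 16 genes were called lower in both libraries, which is 37.2% of either list, and Tfap2d, Pdgfa and Cmtm3 were called higher in both; no gene was called in opposite directions.

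Among those 16, Crym, a thyroid hormone binding protein, stood at 91.9 CPM in WT cells with Sstr2 alone and 11.6 CPM in WT cells with Tfap2d, and at 59.1 and 6.03 CPM in ShhN. Fezf2, the selector of subcerebral neurons, stood at 119.9 and 48.1 CPM in WT and at 126 and 60.3 CPM in ShhN. Tbr1, another deep layer gene, was not called and lay the other way, with more in cells with Tfap2d (0.92 in WT and 0.61 in ShhN). Nts (neurotensin) stood at 39.1 and 1.93 CPM in WT and at 33.4 and 0.670 CPM in ShhN. All 128 Lhx9 UMIs in WT and all 52 in ShhN lay in cells with Sstr2 alone. Calb2, Cck and Tac2, further neuropeptide and calcium-binding genes, had at most 6 UMIs in the cells with Tfap2d of either library. Epha4, an ephrin receptor, stood at 319 and 116 CPM in WT and at 190.2 and 81.0 CPM in ShhN, and Nfia, a factor of glial and neuronal differentiation, at 498 and 233 CPM and at 348 and 173 CPM.

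Cells with Tfap2d had more Pdgfa, a growth factor, at 32.7 against 11.8 CPM in WT and 33.5 against 13.6 CPM in ShhN, and more Cmtm3 at 38.5 against 13.7 CPM and 39.5 against 15.5 CPM. Gcg leaned the same way, at 15.4 against 3.18 CPM in WT, where it had 18 UMIs in all and was not measured, and at 48.2 against 11.5 CPM in ShhN. Rnd2 did not follow Tfap2d: it stood at 133 against 216 CPM in WT and at 202 against 227 CPM in ShhN. Tmem176b stood at 65.5 against 52.1 CPM in WT and at 149.99 against 109 CPM in ShhN.

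Because the ShhN members held more cells with Tfap2d, the comparison of libraries was repeated within each kind of cell. Tmem176b had a log2 ratio of 1.07 in cells with Sstr2 alone and 1.20 in cells with Tfap2d, and Trp53i11 1.15 and 1.56. Cdk6 stood at 1.66 and 2.61, Ube2c at 2.08 and 1.61, and Nr2f2 at -1.43 and -2.32. Each of these 5 genes was measured and called in both kinds, with the same sign. Sox2 (1.67) and Nrp2 (-1.21) were called in cells with Sstr2 alone and had too few counts to be measured in cells with Tfap2d, at 2 and 25 UMIs and 21 and 19 UMIs. Nxph4 (-1.68), Luzp2 (-2.03), Lhx9 (-1.55) and Tcf7l2 (-1.75) were measured in cells with Sstr2 alone. Gcg kept a ratio of 1.86 and 1.65 in the kinds, smaller than its 2.16 in all members.

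Within the ShhN library the 77 members with a Shh UMI were compared with the 705 without one. Of 7672 measured genes 10 were higher (0.13%), among them Shh by construction, and 30 lower (0.391%). The 30 include the globin genes Hba-a1, Hbb-bs and Hbb-bt and the heme gene Alas2, which lay mostly in the few globin-rich ShhN members. Ptch1 and Cdk6 were not called. Ptch1 had 11 UMIs in cells with Shh (21.5 CPM) and 57 in the others (12.1 CPM), a log2 ratio of 0.83 (-0.25 to 1.78). Cdk6 stood at 147 CPM in cells with Shh and 112 CPM in the others (0.39, 0.02 to 0.74). Tmem176b stood at 162 and 116 CPM (0.48, 0.13 to 0.81), Trp53i11 at 307 and 210.4 CPM (0.54, 0.29 to 0.79) and Ube2c at 62.5 and 50.2 CPM (0.32, -0.26 to 0.85). Nr2f2 was called lower at 2 UMIs in cells with Shh and 117 in the others (3.91 and 24.8 CPM), Fezf2 at 50.8 and 113 CPM, and Pax6 at 15.6 and 44.7 CPM. Nts had 0 UMIs in cells with Shh and 126 in the others. Leaving out the 77 cells left 32 genes higher and 99 lower in ShhN over WT members, of which 29 and 93 were among the calls over all members.

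The same comparison of libraries was made in the Eomes cells and in cells further along, which held at least 2 UMIs of Unc5d, at most 1 of Tfap2d plus Sstr2 and none of the 6 excluded genes (415 in WT, 320 in ShhN). These populations come from the same 2 libraries, so their differences are set side by side and not counted as support. Eomes cells made up 8.20% of WT and 7.20% of ShhN cells (ratio 0.879, 0.783 to 0.986), and Unc5d cells 5.74% and 3.85% (0.671, 0.578 to 0.778). In Eomes cells 63 of 8863 measured genes were higher (0.711%) and 77 lower (0.869%). In Unc5d cells 13 of 7612 were higher (0.171%) and 31 lower (0.407%).

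**Figure D4:**
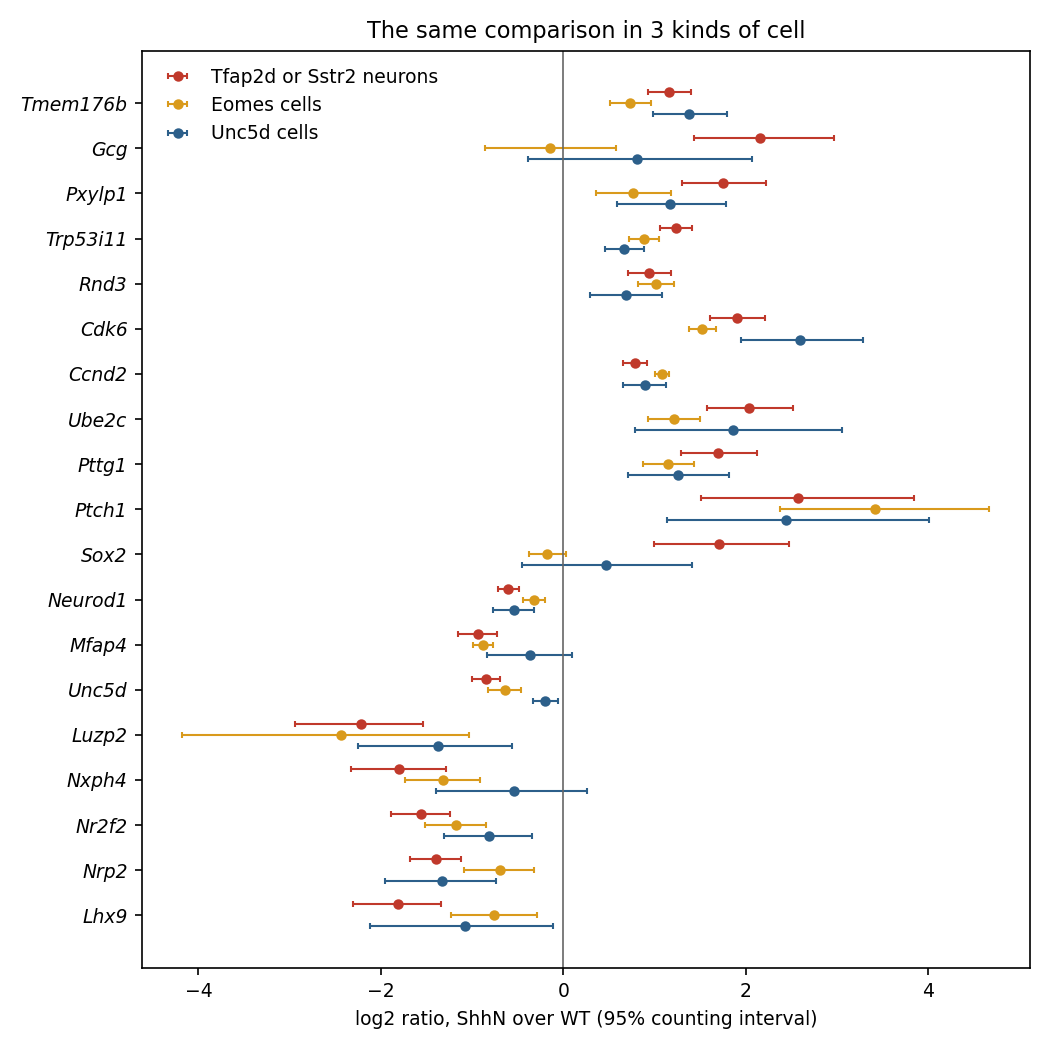
Log2 ratio of ShhN over WT (horizontal axis, 95% counting intervals) for 19 genes in the Tfap2d or Sstr2 neurons, in Eomes cells and in Unc5d cells. Tmem176b, Cdk6, Ptch1 and Trp53i11 lie above 0 in all 3 populations, and the intervals of Sox2 and Gcg lie above 0 in the Tfap2d or Sstr2 neurons and include 0 in the other populations.

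Some ratios had the same sign in all 3 populations, though not every one passed the size rule. Tmem176b went from 63.0 CPM in WT to 105 CPM in ShhN Eomes cells and from 27.8 to 72.6 CPM in Unc5d cells (0.74, not called, and 1.38, beside 1.16 in members). Cdk6 went from 127 to 366 CPM in Eomes cells and from 8.79 to 53.1 CPM in Unc5d cells (1.52 and 2.59, beside 1.90). Nr2f2 was called lower in Eomes cells (-1.18) and stood at -0.82 in Unc5d cells, with no call. Mfap4, called in none of the 3, stood at -0.88 in Eomes cells and at -0.36 in Unc5d cells, where its interval (-0.836 to 0.100) included 0. Rnd3, a relative of Rnd2 in radial migration, stood at 0.94 in members, 1.02 in Eomes cells and 0.69 in Unc5d cells, and was called in Eomes cells.

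Others differed in size or sign from Eomes cells. Gcg stood at 2.16 (1.44 to 2.97) in members and -0.14 (-0.86 to 0.58) in Eomes cells, with intervals that did not meet; in Unc5d cells, on too few counts to be measured, it stood at 0.81 (-0.39 to 2.07), which overlaps the members. Sox2 stood at 1.70 (0.995 to 2.48) in members and -0.17 (-0.37 to 0.03) in Eomes cells, where it was far more abundant, and at 0.47 (-0.46 to 1.41) in Unc5d cells, also unmeasured and overlapping the members. Vim stood at 0.31 in members, -0.65 in Eomes cells and -0.13 in Unc5d cells. Neurog2 stood at 0.52 in members and -0.24 in Eomes cells, while Unc5d cells were close to members at 0.73 (0.30 to 1.16). In S phase genes Eomes cells had 14 of 22 measured genes called higher (median 1.10) and members none of 18 (median 0.24), while for G2 and M phase 7 of 17 were called higher in Eomes cells (median 0.74) and 5 of 10 in members (median 1.38). Unc5d cells had medians of 0.01 for S phase and 0.33 for G2 and M phase, the latter over 4 measured genes. These medians cover different genes in each population. Summed over all 24 listed genes, G2 and M phase went from 279 CPM in WT to 479 CPM in ShhN members. In Eomes cells the sum went from 605 to 1013 CPM, a similar ratio. The larger median in members is therefore not read as a larger difference. With 1 library per group, whether the response itself differed between these populations was not tested.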

How the data were processed

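Single-cell RNA of embryonic mouse cortex was measured with the 10x Genomics Chromium system, per the labels' protocols. The authors deposited raw UMI counts per gene and barcode, with no normalization, in 1 matrix for each group; the submitters' processing notes name Seurat 3, Cell Ranger and StringTie with build mm10, in roles not given in the sources used here. The matrices are named control and experimental, which were matched to WT and ShhN. Each lists 27998 genes, of which 27722 matched GENCODE mouse release 21 by gene ID, and all barcodes, so cells were called here as the report describes.

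UMIs of members were summed per library. Exact 95% intervals (Poisson for CPM, conditional binomial for ratios, Clopper-Pearson for shares) cover counting error only. A count of 0 was given a floor of 3 counts. With 1 pooled library per group the size rule of the report replaces a test. It was run on simulated counts with counting error alone. That simulation held no clustering of UMIs in a few cells and no variation between embryos or libraries, so it cannot show how the rule handles them. The text names the 12 genes at each end of the ranking by the bound nearest 0, leaving out the 8 genes of the member rule, globins, mitochondrial, sex-linked marker and unnamed genes, plus genes of 28 fixed lists. Members, lists and rules were chosen with earlier results of these data known. Vascular cells, set beside members, held at least 5 UMIs over 6 vascular genes. For shares, cells were thinned to 4500 UMIs, which left out 129 WT and 98 ShhN members. Scrublet (scanpy 1.11.5, expected doublet rate 6%) marked doublets, which were kept. Scaling alternatives used edgeR 4.0.16 under R 4.3.3; other steps used Python 3.11.15, numpy 2.4.6 and scipy 1.17.1. Alternatives covered the member rule, cell filters, doublets, thinning, shared barcodes, scaling, weighting of cells, free RNA and the minimum count. Some genes that meet the naming rule are not reported here.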

Additional observations from a re-analysis of the deposited data

How the results depend on the processing

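The ratio of member shares stayed between 1.14 and 1.37 under every alternative run. The 36 higher genes became 57 with 1 Tfap2d or Sstr2 UMI needed, 21 with cells thinned, 10 with a minimum of 200 UMIs and 57 with no minimum. The 107 lower genes became 66 with 3 UMIs needed, 45 with cells thinned, 164 with a minimum of 20 UMIs, 28 with a minimum of 200 UMIs and 205 with no minimum. They became 65 without the members rich in Reln, Calb2, Prox1, Nefl or Grp, an alternative chosen after seeing the data, under which Prox1 reversed to 0.59, a value that a choice of cells by Prox1 itself can set; fewer cells and genes enter most of these counts. The named genes kept their call in 376 of 404 combinations of gene and setting, and 10 of 27 genes did so in all. Ptch1, B2m, Abca1, Col12a1, Grp and Nefl lost it with 3 UMIs needed and with thinning. Sox1, Sox2, Pou3f4, Lhx9 (-2.29), Luzp2 and Tcf7l2 lost it with thinning, and Tmem176b with 3 UMIs needed. Trp53i11 lost it with 1 UMI needed, and Reln when called doublets were removed (-1.75) and with thinning. Col12a1 lost it too without the members rich in Reln, Calb2, Prox1, Nefl or Grp. The lower genes numbered 77 with TMM and 78 with RLE scaling, and the higher genes 49 with either. Thinned to 4500 UMIs, 16 of the 21 higher and 23 of the 45 lower genes were among the main calls. Low counts limit Ptch1, Gcg and the markers of scarce cell types. No paired analysis was possible because the cells of a group's 4 samples share 1 matrix, and for the same reason no sample could be left out in turn.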

Other observations

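Several genes outside the fixed lists were called higher in ShhN members. Pou3f4, a POU factor of the ventricular zone and newborn neurons, had 56 UMIs in WT and 199 in ShhN members (1.32). The amino acid genes Asns, an asparagine synthetase, and Slc7a5, a transporter, had 36 and 135 UMIs (1.39) and 34 and 110 UMIs (1.18). Prom1, a membrane protein of progenitors, had 31 and 109 UMIs (1.30), and the sodium channel gene Scn1a 35 and 114 (1.19). Among lower genes, the synuclein gene Sncb had 107 and 46 UMIs (-1.73), and Ina, an intermediate filament gene of neurons, 898 and 551 (-1.22). Slit2, a repulsive guidance ligand, had 101 and 69 UMIs (-1.06), and the receptor tyrosine kinase gene Kit and its ligand gene Kitl 45 and 22 UMIs (-1.55) and 69 and 43 UMIs (-1.20). These genes were chosen after their values were seen.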
